A study of Daphnia magna with 56 samples.

Results

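The 100 mGy/h group on day 8 was the most strongly irradiated and longest exposed group of a gamma radiation series in Daphnia magna, a small freshwater crustacean, and it is described here against the unexposed control of the same day. The comparison takes the 4 libraries labelled 100 mGy/h and the 4 labelled 0 mGy/h in the day 8 count table, 8 of the 56 libraries of the series. All 8 came from whole wild-type females described as juveniles 8 days old, and the label names no tissue or cell type that could be checked against markers. The animals lived in M7 medium in small static beakers, and the groups differed by their labels only in the gamma dose rate, held for 8 days in the exposed group. How many animals went into a library, and whether replicates came from separate beakers, is not stated. The p-values below therefore measure the spread between libraries, which may in part be technical. The main edgeR fit took that spread from all 28 day 8 libraries, not from the 8 alone. In RNA from whole animals, fewer cells of a type and less RNA per cell cannot be told apart.

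Gamma rays ionize water and biological molecules, and the resulting breaks and oxidized bases in DNA are known to arrest dividing cells and to switch on DNA repair genes in many animals. Daphnia females of this age pass through successive moults, each with its own wave of cuticle synthesis, and begin to provision eggs, so that transcript levels in whole juveniles also follow the moult and the maturation of the ovary. The records measured were RefSeq model transcripts, named below by accession and, where one matched, by gene symbol. Symbols were all of the LOC type and carried no product description, so no function is given for any of them, and no sequence of them was used here.

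Sequencing depth was even. The 8 libraries held 14053882 to 14802473 counted reads, the groups did not differ in total (exact permutation test, 2-sided p = 0.8), and 10449 to 10676 transcripts were detected per library. The most abundant record, XM_032923507.1, took 14.4 ± 2.33% of all counts in the 100 mGy/h libraries and 11.7 ± 1.29% in the controls (SD, n = 4 each), with overlapping ranges of 11.1% to 16% and 10.3% to 13.3% (exact permutation test, 2-sided p = 0.114). Levels are in CPM, that is, reads relative to a library total after TMM scaling.

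Exposed and control libraries separated in their overall profile. In a principal component analysis of the 8 libraries, the first component held 31.1% of the variance. Its scores were 21.5, 23.9, 0.111 and 48.4 in 100 mGy/h replicates 1 to 4, against -4.75, -31.6, -31.6 and -25.8 in control replicates 1 to 4. The groups did not overlap, but exposed replicate 3 and control replicate 1 lay next to each other near 0. The means were 23.4 ± 19.7 and -23.4 ± 12.8 (SD, n = 4 each), a difference of 46.9 with a 2-sided exact permutation p = 0.0286, the lowest value possible with 4 libraries in each group. Without 100 mGy/h replicate 4 the difference was 33.6 and the exact permutation p was 0.171. Neither the second component (23.3% of the variance, exact permutation p = 0.943) nor the third (16.9%, p = 0.286) separated the groups.

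Of the 23570 records, 9367 had enough counts to be tested, and 256 of these (2.73%) were called, that is, had an adjusted p under 0.05 in edgeR's quasi-likelihood test. Calls were split almost evenly by direction, with 125 higher (1.33%) and 131 lower (1.40%) at 100 mGy/h. With upper-quartile scaling in place of TMM the split was 92 higher and 200 lower, so the balance depended on the scaling. Sizes were not even. Among the higher transcripts, 21 rose at least 4-fold, 32 at least 2-fold, 34 between 1.5-fold and 2-fold and 59 less than that. Among the transcripts called lower, none fell 4-fold, 8 fell at least 2-fold, 20 between 1.5-fold and 2-fold and 103 less than that. The quartiles of the log2 fold change were 0.35, 0.60 and 1.07 among rises and -0.54, -0.40 and -0.32 among falls, while the median absolute log2 fold change over all tested transcripts was 0.17.

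Called rises were larger among transcripts of low abundance, and so were called falls. With few reads only larger changes can be called, so these medians do not show how all scarce transcripts changed. When tested transcripts were divided by mean level into 4 bins of equal size, the lowest bin reached up to 7.12 CPM. In it, 24 transcripts were called higher with a median log2 fold change of 1.65, and 13 lower with a median of -0.74. In the highest bin, from 61.6 CPM upward, 31 were called higher with a median of 0.34 and 41 lower with a median of -0.36. The share called was 1.58%, 2.86%, 3.42% and 3.07% from the lowest to the highest bin. All 4 exposed libraries lay above all 4 controls for 115 of the 125 higher transcripts (92.0%), and below them for 125 of the 131 lower ones (95.4%). Over all tested transcripts the exposed libraries lay wholly above the controls for 7.08% and wholly below for 8.33%, together 15.4%. The plot of fold change against level shows both features.

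**Figure D1:**
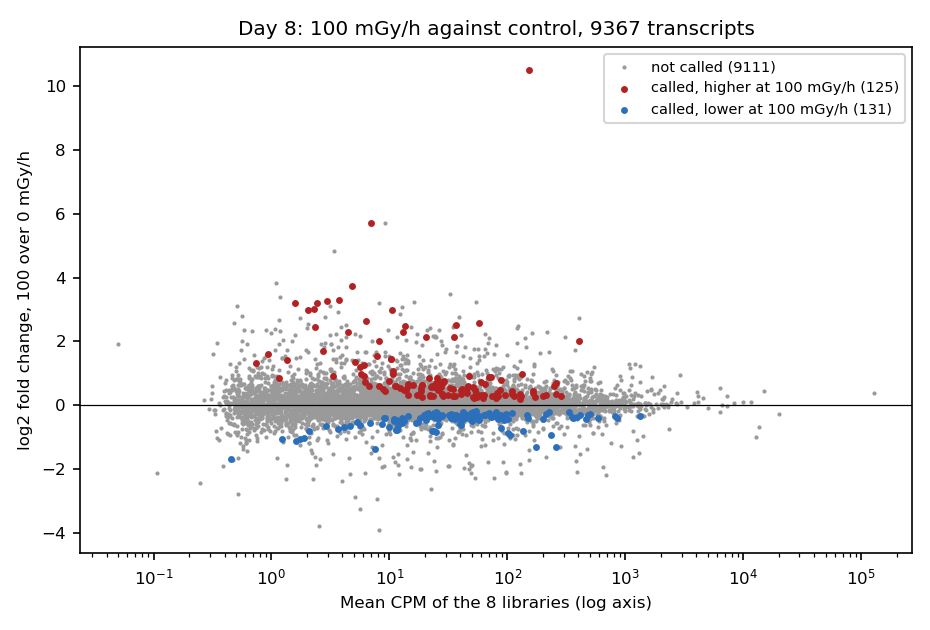
Each point is 1 of 9367 tested transcripts, with the mean CPM of the 8 libraries on a log axis across and the log2 fold change of 100 over 0 mGy/h up. The 125 transcripts called higher (red) reach far up at low levels, whereas the 131 called lower (blue) stay close to the line at 0.

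The number of calls rested strongly on single libraries. Leaving out 100 mGy/h replicates 1, 2, 3 or 4 left 107, 85, 148 or 55 calls, and leaving out control replicates 1, 2, 3 or 4 left 35, 56, 191 or 80. All but control replicate 3 thus moved the count by more than 1.5 times. DESeq2 called 692, which included 253 of the 256, and edgeR with 4 surrogate variables as covariates called 27, which included 18 of them. In the bars of calls by setting, the split between higher and lower is drawn for each.

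**Figure D2:**
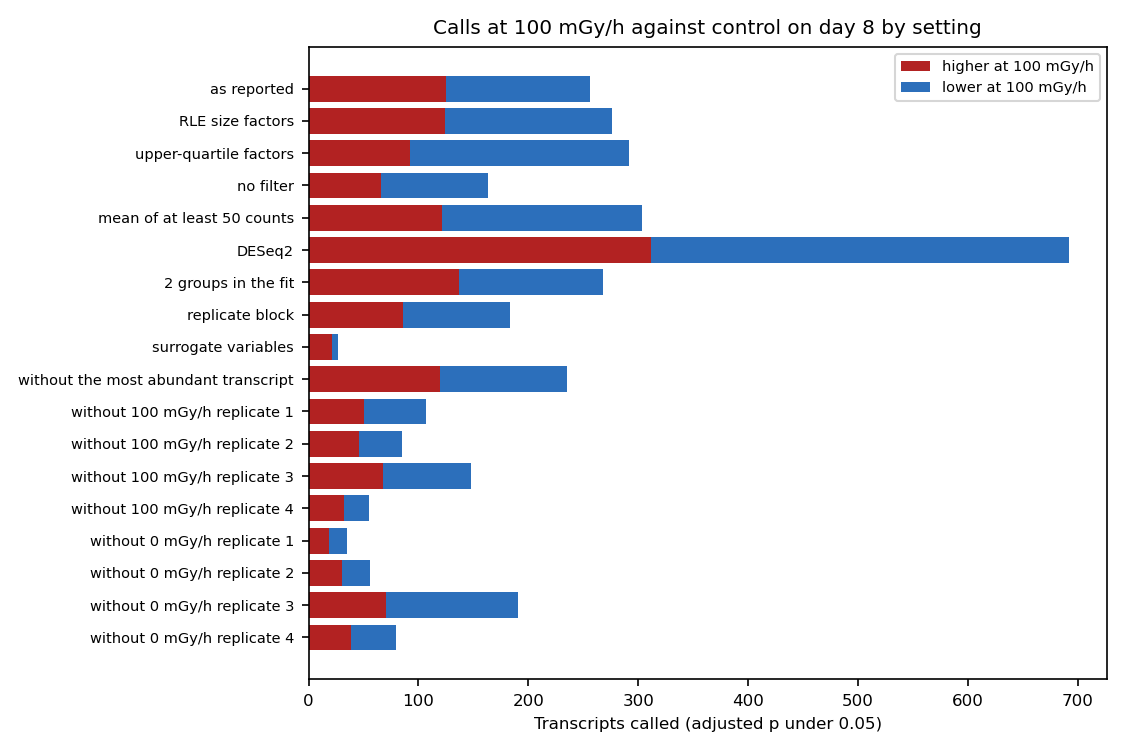
Horizontal bars give the number of transcripts with an adjusted p under 0.05 at 100 mGy/h against control on day 8, for the reported fit (256) and for each other setting, split into higher (red) and lower (blue). Bars run from 27 with surrogate variables to 692 with DESeq2.

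Most transcripts below were named by a rule. It required a call, a mean of at least 50 counts and groups that did not overlap. The rule thus fixed the lack of overlap in them, which is no separate support. Called neighbouring pairs were added without the rule. Among the transcripts of smallest adjusted p were 3 that rose, and that were also called higher on day 4. The third of these tied at its adjusted p with the falls of XM_032923044.1 and XM_032938957.1, which were not called on day 4. XM_032940429.1 (LOC116932654) had the smallest adjusted p. Its level was 62.0, 53.9, 58.6 and 53.5 CPM in 100 mGy/h replicates 1 to 4, against 11, 13.4, 15 and 12.9 CPM in control replicates 1 to 4. The groups were far apart and each was tight. The log2 fold change was 2.12 (SE 0.10, edgeR adjusted p = 9.4e-13), and it lay between 2.05 and 2.19 in the 8 fits that each left out 1 library. It was the only transcript called at 100 against 40 mGy/h, where the log2 difference was 0.60 (SE 0.09, edgeR adjusted p = 0.0148). That call was lost with upper-quartile scaling, in a fit of the 2 groups alone, without 100 mGy/h replicate 1 or 3, and without 40 mGy/h replicate 1, 2 or 4.

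XM_032933233.1 (LOC116926364) was a low transcript with little spread. It had 7.57, 6.79, 7.06 and 7.75 CPM at 100 mGy/h, against 2.70, 3.01, 2.36 and 3.44 CPM in the controls. Both groups were tight and far apart. The rise was 1.34 on the log2 scale (SE 0.17, edgeR adjusted p = 0.000377). On day 8 its mean level by dose rate was 2.88 CPM at 0 mGy/h, 3.14 at 0.4, 3.07 at 1, 3.23 at 4, 3.46 at 10, 4.51 at 40 and 7.29 at 100 mGy/h. Only the last of these was called against the control (edgeR adjusted p = 0.322 at 40 mGy/h). Over all transcripts, the lower dose rates gave few calls on day 8, 0.0214% at 0.4 mGy/h, 0.256% at 1, 0% at 4, 0.0107% at 10 and 0.0320% at 40 mGy/h. On day 4, in other libraries, it was called higher at 100 mGy/h with a log2 fold change of 0.69 (adjusted p = 1.96e-05) and at 40 mGy/h with 0.49 (adjusted p = 0.00464). Its rise at 100 mGy/h was larger on day 8 than on day 4 by 0.65 on the log2 scale (SE 0.15, edgeR interaction, adjusted p = 0.0316).

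XM_032941637.1 (LOC116933993) rose less. Its levels were 30.7, 35.2, 29.7 and 27.0 CPM in the 100 mGy/h libraries, against 17.3, 19.5, 20.3 and 19.3 CPM in the controls. The lowest exposed library, at 27.0 CPM, stood above the highest control, at 20.3 CPM, as the naming rule required. The log2 fold change was 0.68 (SE 0.10, edgeR adjusted p = 0.00237). On day 4 it was 0.53 at 100 mGy/h (adjusted p = 6.83e-06) and 0.35 at 40 mGy/h (adjusted p = 0.00402), and the difference between days, 0.14 (SE 0.10), did not pass the interaction test (adjusted p = 0.489). At 40 mGy/h on day 8 it averaged 26.0 CPM, between both groups, but was not called there (adjusted p = 0.214).

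By far the largest rise among the transcripts named was that of XM_032934796.1 (LOC116927744), which was all but absent from the controls. It reached 388, 299.9 and 537 CPM in 100 mGy/h replicates 1, 3 and 4, and 0.895 CPM in replicate 2, against 0.337, 0.0718, 0.318 and 0.0662 CPM in control replicates 1 to 4, which stood for 5, 1, 5 and 1 reads. One exposed library was thus close to the controls and the other three were far above them. The fitted log2 fold change was 10.51 with an SE of 2.44 (edgeR adjusted p = 0.0283). It was called in 3 of the 8 fits with 1 library left out, where the adjusted p ran from 0.0230 to 0.0895. At 40 mGy/h it had 0.131, 0.303, 155 and 1.22 CPM, high in replicate 3 alone. Single libraries at lower dose rates also stood out. Replicate 3 at 4 mGy/h reached 14 CPM, and at 10 mGy/h replicates 1 and 2 reached 10.4 and 29 CPM, while no library at 0.4 or 1 mGy/h was above 0.208 CPM. No dose rate under 100 mGy/h was called for it (edgeR adjusted p from 0.470 to 0.997).

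XM_032934805.1 (LOC116927752), its neighbour in the annotation with no coding gene between them, had the same order of libraries at 100 mGy/h. It had 11.6, 0.373, 9.63 and 14.6 CPM at 100 mGy/h, against 0.809, 0.287, 0.828 and 0.728 CPM in the controls. Exposed replicate 2 was again low and lay within the controls, so the groups overlapped. The log2 fold change was 3.75 (SE 0.81, edgeR adjusted p = 0.0220), called in 4 of the 8 fits with 1 library left out. At 40 mGy/h replicate 3 was again the highest, with 5.12 CPM against 0.982, 0.228 and 1.01 CPM in replicates 1, 2 and 4. Both transcripts were near 0 on day 4, with means of 0.0756 and 0.244 CPM at 100 mGy/h and of 0.0739 and 0.109 CPM in the controls. Whether reads could be shared between neighbouring or near-identical genes depends on a counting procedure that is not given in the sources used here.

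The 12 largest rises and 12 largest falls were taken among the transcripts that met the naming rule. Of the 21 called rises of at least 4-fold and the 8 called falls of at least 2-fold, some did not meet it. Apart from XM_032940429.1, 8 of those 12 rises concerned transcripts whose mean level was higher in both day 4 groups than in the day 8 controls. The share over all tested transcripts was not counted, and the rule favoured rises with low day 8 controls. CPM was scaled within each day, so levels set across days rest on a separate scaling. XM_032932821.1 (LOC116926043), 1 of 2 records with that symbol, averaged 6.83 ± 2.47 CPM at 100 mGy/h and 0.684 ± 0.445 CPM in controls on day 8 (SD, n = 4 each), but 3.29 CPM at 100 mGy/h and 6 CPM in controls on day 4. It was called in 3 of the 8 fits with 1 library left out. XM_032929494.1 (LOC116922981) had 19.9, 30.1, 15 and 26.6 CPM in the day 8 exposed libraries, against 6.27, 3.66, 3.82 and 2.58 CPM in the day 8 controls. The lowest exposed library was more than 2-fold above the highest control. Its log2 fold change was 2.49 (SE 0.65, edgeR adjusted p = 0.0436), while on day 4 it averaged 21.6 CPM at 100 mGy/h and 29.9 CPM in controls (log2 fold change -0.47, adjusted p = 0.729). On day 8 it was called in none of the 8 fits with 1 library left out, where the adjusted p ran from 0.0533 to 0.108.

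XM_032937289.1 was the most even of these. It had 30.9, 33.6, 31.0 and 37.8 CPM in the day 8 exposed libraries, against 10.7, 6.17, 6.30 and 6.82 CPM in the controls. All exposed libraries lay within a narrow band and control replicate 1 stood above the other controls. The log2 fold change was 2.15 (SE 0.43, edgeR adjusted p = 0.0133), called in 7 of the 8 fits with 1 library left out. On day 4 its means were 34.0 CPM at 100 mGy/h and 46.3 CPM in controls.

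XM_032939678.1 (LOC116931997) had 60.8, 63.5, 45.5 and 80.0 CPM at 100 mGy/h, against 25.6, 6.03, 5.92 and 6.02 CPM in the controls. Control replicate 1 stood about 4-fold above the other controls, which were almost equal, and still below every exposed library. The log2 fold change was 2.52 (SE 0.65, edgeR adjusted p = 0.0422), and leaving out control replicate 1 gave 3.38. XM_032932105.1 showed the same control standing apart, with 27.3 CPM in replicate 1 and 12.6, 12.7 and 13.8 CPM in the rest. It averaged 99.1 ± 33.5 CPM at 100 mGy/h and 16.6 ± 7.16 CPM in controls on day 8, and 79.9 and 107.7 CPM on day 4. Both were called in 1 of the 8 fits with 1 library left out.

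XM_032934432.1 (LOC116927417) averaged 7.39 ± 2.15 CPM at 100 mGy/h and 1.5 ± 0.841 CPM in controls, and it rose by 2.29 on the log2 scale (SE 0.57, edgeR adjusted p = 0.0358), called in 1 of the 8 fits with 1 library left out. A pair of genes with 1 coding gene between them rose as well. XM_032933762.1 (LOC116926832) had 11.8, 11.9, 9.76 and 18.5 CPM at 100 mGy/h, against 3.71, 3.52, 3.18 and 2.45 CPM in controls (log2 fold change 2.01, SE 0.55, edgeR adjusted p = 0.0488). XM_032933765.1 (LOC116926834) had 10.5, 7.83, 11.1 and 17.1 CPM, against 5.53, 2.08, 3.44 and 4.96 CPM in controls (log2 fold change 1.54, SE 0.40, edgeR adjusted p = 0.0437). In both, exposed replicate 4 was the highest library, and the groups did not overlap, as the naming rule required. Neither was called in any of the 8 fits with 1 library left out, where the adjusted p ran from 0.0626 to 0.127 and from 0.0553 to 0.129. On day 4 both were higher than in either day 8 group, at 20.5 and 21.3 CPM at 100 mGy/h and 25.8 and 24.6 CPM in controls.

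The sizes of these rises depended on the model. With 4 surrogate variables as covariates, the log2 fold change was 7.59 for XM_032934796.1, 2.79 for XM_032934805.1, 1.42 for XM_032932821.1, 1.68 for XM_032932105.1 and 1.62 for XM_032939678.1. It was 0.81 for XM_032929494.1, 0.84 for XM_032934432.1, 1.00 for XM_032937289.1 and 0.48 for XM_032933762.1. Each of these 9 folds was more than 1.5 times smaller than without the covariates, and none was called (edgeR adjusted p from 0.118 to 0.675). XM_032933765.1 had 0.99 and XM_032940429.1 had 2.30 in that model, and both stayed called (edgeR adjusted p = 0.0269 and 4.04e-12).

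**Figure D3:**
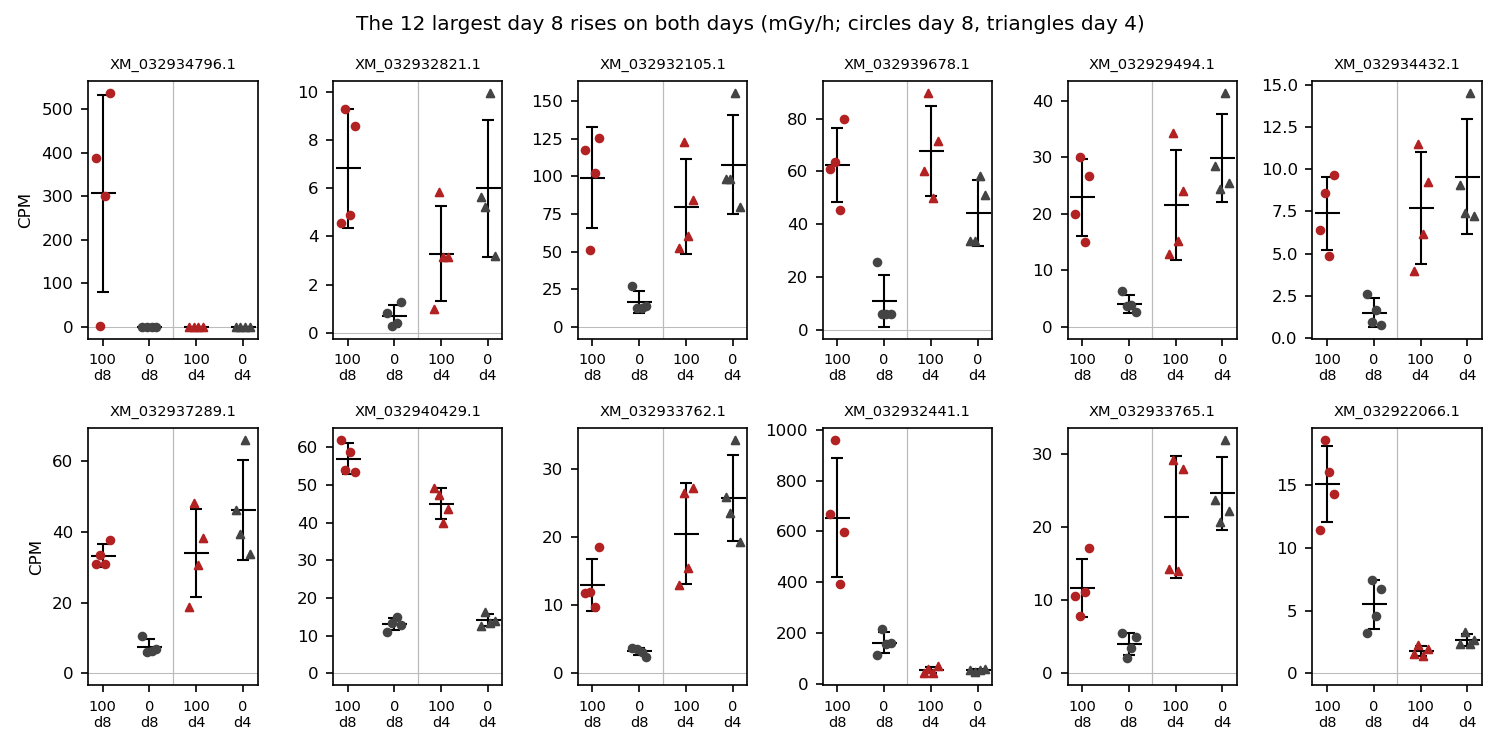
CPM in each library of the 12 largest day 8 rises that met the naming rule, with day 8 (d8, circles) left and day 4 (d4, triangles) right, 100 mGy/h in red before 0 mGy/h in dark grey. Bars are the mean and SD of 4 libraries, each panel has its own linear axis, and CPM was scaled separately for each day. In XM_032937289.1 the day 8 controls (mean 7.5 CPM) lie below the day 8 exposed libraries (33.3 CPM) and both day 4 groups (34.0 and 46.3 CPM).

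Another pair rose from a different starting pattern. XM_032932441.1 (LOC116925711) had 670, 961, 392 and 597 CPM at 100 mGy/h, against 115, 218, 156 and 163 CPM in the controls. The exposed libraries varied more than 2-fold among themselves but all lay above the controls, as the naming rule required. The log2 fold change was 2.01 (SE 0.42, edgeR adjusted p = 0.0189), called in 6 of the 8 fits with 1 library left out. The other exposed groups of day 8 also had higher means than the control, 589.8 CPM at 0.4 mGy/h, 455 at 1, 389 at 4, 358 at 10 and 433 at 40 mGy/h, although none of these was called (adjusted p from 0.249 to 0.997). All of them are set against the same 4 controls. On day 4 it stood at 55.7 CPM at 100 mGy/h and 54.8 CPM in controls, but it was called higher at 1 mGy/h with 126 CPM (edgeR adjusted p = 0.00194), at 10 mGy/h with 141 CPM (0.0022) and at 40 mGy/h with 122 CPM (0.00485). XM_032922066.1 (LOC116916733) was alike on day 8 at a lower level, with 15.1 ± 3.04 CPM at 100 mGy/h and 5.49 ± 1.93 CPM in controls (SD, n = 4 each; log2 fold change 1.46, SE 0.30, edgeR adjusted p = 0.0176), and with means of 7.05 to 10.8 CPM at the 5 dose rates between.

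Falls were smaller than rises. XM_032934257.1 (LOC116927224) fell furthest among the transcripts named, with 4.11, 4.77, 4.15 and 3.71 CPM at 100 mGy/h, against 9.24, 11.9, 8.79 and 13.3 CPM in the controls. The exposed libraries were tight and the controls were not. It fell by 1.37 on the log2 scale (SE 0.26, edgeR adjusted p = 0.00842) and was called in all 8 fits with 1 library left out. At 40 mGy/h it averaged 5.73 CPM (not called against the same controls, adjusted p = 0.322), while the groups from 0.4 to 10 mGy/h averaged 10.8 to 12.8 CPM. On day 4 its level was higher at 100 mGy/h than in controls, 31.0 against 22.3 CPM, without being called (adjusted p = 0.0817). The lower dose rates of day 4 also averaged above those controls, at 29.2 to 33.5 CPM. Of these, 1 mGy/h (edgeR adjusted p = 0.0223) and 10 mGy/h (edgeR adjusted p = 0.0493) were called. The effects of 100 mGy/h on both days differed by -1.85 (SE 0.18, edgeR interaction, adjusted p = 0.000956).

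XM_032923044.1 fell by 0.93 on the log2 scale (SE 0.14, edgeR adjusted p = 0.00237). Its levels were 170, 161, 177 and 132 CPM at 100 mGy/h, against 354, 345, 240.0 and 281 CPM in the controls. As the naming rule required, every exposed library was below every control. It was called in all 8 fits with 1 library left out. XM_032921540.1 (LOC116916305) was closely grouped under exposure, with 70.6, 73.0, 77.9 and 70.7 CPM, against 150.1, 136, 96.7 and 173 CPM in the controls (log2 fold change -0.93, SE 0.21, edgeR adjusted p = 0.0246). XM_032935076.1 (LOC116928024) had 78.9, 71.4, 69.8 and 65.1 CPM at 100 mGy/h, against 151, 110.4, 101 and 163 CPM in controls (log2 fold change -0.88, SE 0.23, edgeR adjusted p = 0.0437). In both, control replicates 1 and 4 were the high ones and replicate 3 was the low one. They were called in 2 and 1 of the 8 fits with 1 library left out.

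XM_032941588.1 and XM_032925901.1 were more variable. XM_032941588.1 had 69.3, 119, 79.5 and 135 CPM at 100 mGy/h, against 198, 367, 233 and 212 CPM in the controls, and was called in no fit with 1 library left out. The groups did not overlap, as the naming rule required, but exposed and control libraries each spread over almost 2-fold. XM_032925901.1 averaged 149.7 ± 45.2 CPM at 100 mGy/h and 370.1 ± 73.7 CPM in controls (SD, n = 4 each) and was called in all 8 such fits. Their log2 fold changes were -1.33 (SE 0.36, edgeR adjusted p = 0.0499) and -1.31 (SE 0.25, edgeR adjusted p = 0.00884). The remaining 6 of the 12 largest falls, XM_032928899.1, XM_032941322.1, XM_032940711.1, XM_032935362.1, XM_032933096.1 and XM_032929573.1, had log2 fold changes from -0.81 to -0.74 and were called in 0 to 4 of the 8 fits with 1 library left out. The plot of levels by library shows all 24.

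**Figure D4:**
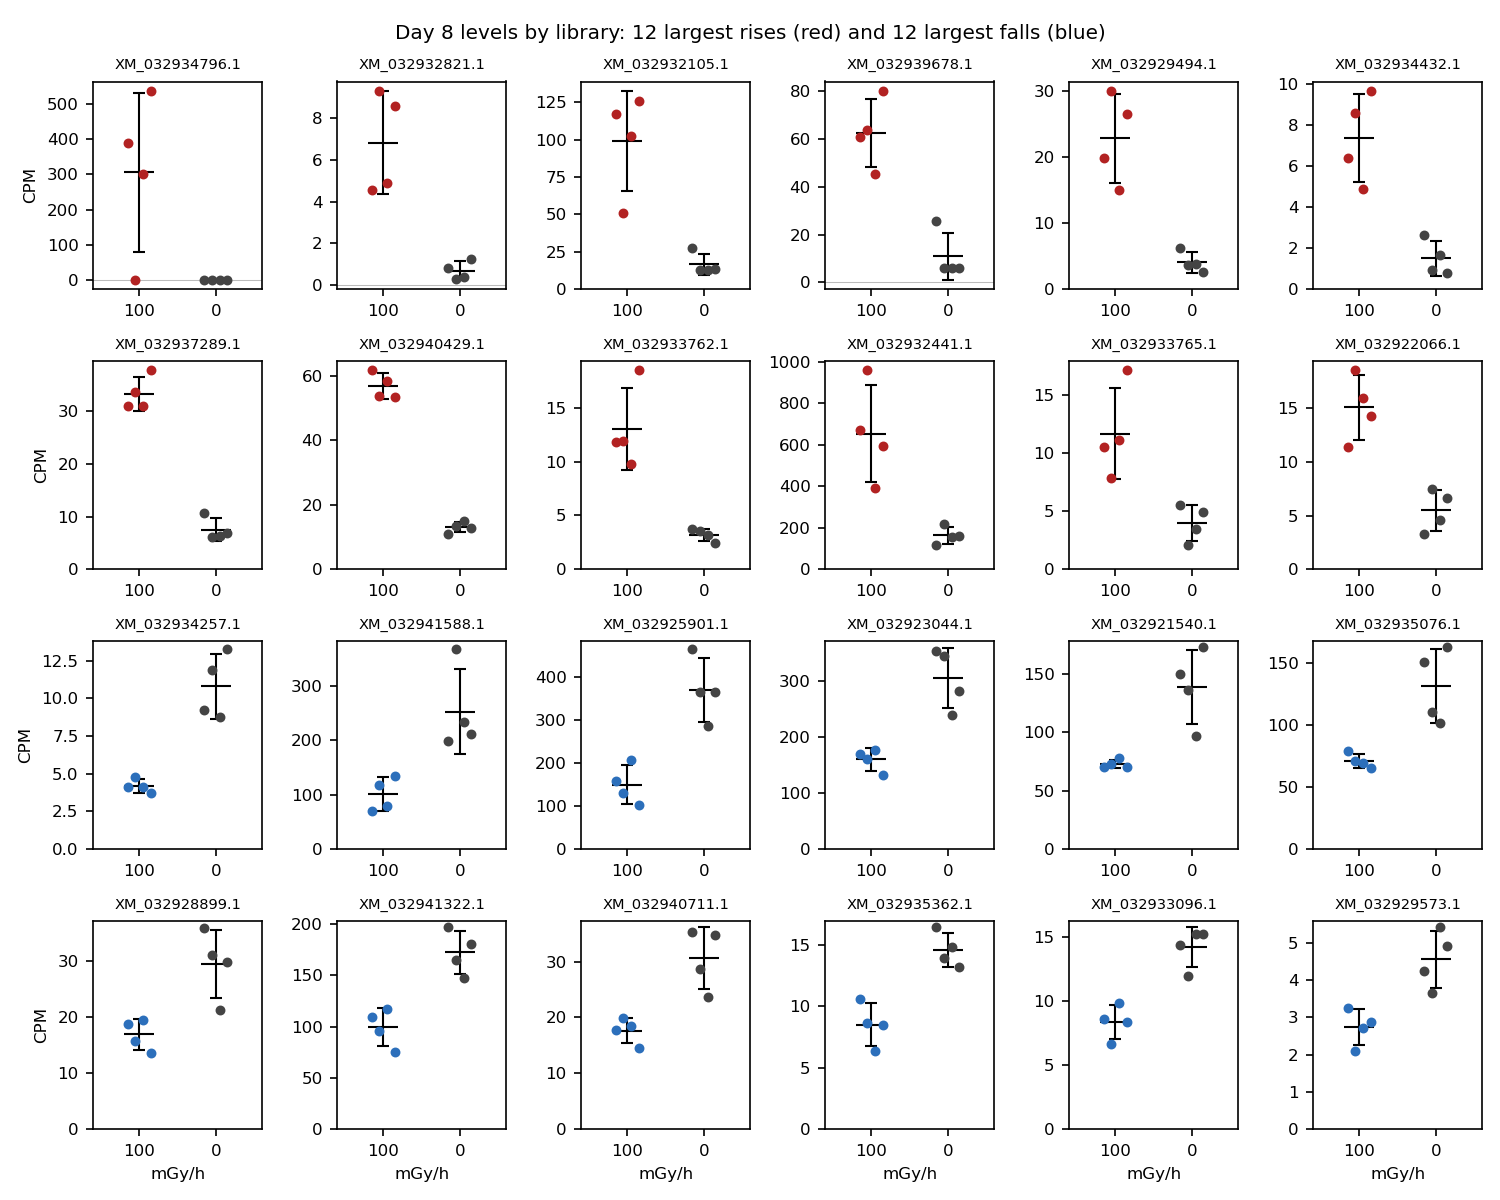
CPM in each day 8 library for the 12 largest rises (red, upper panels) and the 12 largest falls (blue, lower panels) chosen by the naming rule, with 100 mGy/h left and 0 mGy/h (dark grey) right; bars are the mean and SD of 4 libraries and each panel has its own linear axis from 0. No panel has overlapping groups, which the rule required; in XM_032934796.1 exposed replicate 2 lies at 0.895 CPM beside replicates of 299.9 to 537 CPM.

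The 3 most abundant transcripts among those that met the naming rule all fell, and by little. XM_032939931.1 (LOC116932153) had 1192, 1250.3, 1139 and 1141 CPM at 100 mGy/h, against 1568, 1644, 1339 and 1436 CPM in controls (log2 fold change -0.34, SE 0.09, edgeR adjusted p = 0.0417). XM_032924636.1 (LOC116918848) had 724, 698, 756 and 724 CPM, against 920.4, 928, 906 and 916 CPM in controls (log2 fold change -0.34, SE 0.08, edgeR adjusted p = 0.0252). Its controls lay in a narrow band and every exposed library was below them, as the naming rule required. XM_032942722.1 averaged 725 ± 57.3 CPM at 100 mGy/h and 965 ± 103 CPM in controls (SD, n = 4 each; log2 fold change -0.41, SE 0.11, edgeR adjusted p = 0.0427). On day 4 the last was called in the opposite direction, with 843 CPM at 100 mGy/h and 766 CPM in controls (log2 fold change 0.14, edgeR adjusted p = 0.0372), and the difference between days was -0.56 (SE 0.10, edgeR interaction, adjusted p = 0.0148). Each of the 3 was called in only 1 or 2 of the 8 fits with 1 library left out.

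Called genes that lay next to each other among the tested genes of the annotation formed 5 pairs, 2 of them higher and 3 lower. The base was 6371 tested transcripts with a matched gene, of which 82 were called higher and 91 lower. Whether so many pairs exceed what these shares alone would give was not tested. No run was longer than 2. The higher pairs are described above. In the lower pair with no coding gene between, LOC116924012 (XM_032930552.1) had 73.3, 70.6, 72.6 and 66.0 CPM at 100 mGy/h, against 100.5, 95.5, 88.5 and 98.7 CPM in controls. Its neighbour LOC116924016 (XM_032930557.1) had 45.5, 45.0, 42.2 and 46.5 CPM, against 57.2, 55.3, 50.6 and 50.7 CPM. Both were lower in every exposed library, with log2 fold changes of -0.44 (SE 0.10, edgeR adjusted p = 0.0304) and -0.25 (SE 0.07, edgeR adjusted p = 0.0473). They were called in 2 and 0 of the 8 fits with 1 library left out. LOC116936556 (XM_032943726.1) and LOC116936564 (XM_032943739.1), also with no coding gene between them, had log2 fold changes of -0.25 and -0.34, and were called in 0 and 6 of these fits. LOC116921574 (XM_032927918.1) and LOC116921570 (XM_032927915.1), with 3 coding genes between them, had -0.66 and -0.55, and were called in 2 and 1.

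A smaller set kept its call whichever library was left out. These were 29 of the 256, 15 higher and 14 lower, and 11 of them were also called under every other setting including surrogate variables. Of the 29, 6 were among the transcripts named by rule, and those named next were chosen after their values were seen. XM_032939974.1 had 91.8, 106.7, 89.0 and 88.7 CPM at 100 mGy/h, against 54.3, 49.7, 41.2 and 57.2 CPM in controls (log2 fold change 0.89, SE 0.15, edgeR adjusted p = 0.0044). XM_032941777.1 had 28.8, 31.0, 29.8 and 21.1 CPM, against 14.5, 18.2, 12.4 and 15.9 CPM in controls (log2 fold change 0.86, SE 0.14, edgeR adjusted p = 0.0044). XM_032935389.1 had 179.9, 187, 190.1 and 192 CPM, against 144, 138, 143 and 149.6 CPM in controls (log2 fold change 0.38, SE 0.06, edgeR adjusted p = 0.0044). All 3 had every exposed library above every control. XM_032931608.1 was one of those that fell, with 46.8 ± 2.77 CPM at 100 mGy/h and 60.2 ± 2.50 CPM in controls (SD, n = 4 each; log2 fold change -0.36, SE 0.06, edgeR adjusted p = 0.0044).

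Of the 29, 28 were also tested on day 4, and 7 of these were called at 100 mGy/h there in the same direction and none in the opposite one. On day 4 as a whole, 0.758% of tested transcripts were called at that dose rate. All 7 were higher on both days, and besides the 3 described first they included XM_032941777.1, which on day 4 rose by 0.61 on the log2 scale (edgeR adjusted p = 6.77e-07), and XM_032940737.1, which rose by 0.28 (edgeR adjusted p = 0.0193). XM_032939974.1 and XM_032935389.1, called on day 8, had day 4 log2 fold changes of -0.18 and -0.01 (edgeR adjusted p = 0.799 and 0.980).

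Over all transcripts, the effect of 100 mGy/h differed between the days for 410 of 9329 tested (4.39%), with 193 more positive and 217 more negative on day 8 (edgeR interaction of dose rate and day in 16 libraries). With each library left out in turn the count ran from 150, without day 4 control replicate 3, to 787, without day 8 100 mGy/h replicate 3. It also moved by over 1.5 times without any of the 100 mGy/h libraries of day 4, day 8 100 mGy/h replicate 4, day 8 control replicates 1 or 4, or day 4 control replicates 1 or 4. Age and length of exposure cannot be told apart in this contrast. Of the 12 largest rises that met the naming rule, 8 passed the interaction test, as did 8 of the 12 largest such falls. These were picked for their day 8 size. On day 4, 1 of the 12 rises and none of the 12 falls was called at 100 mGy/h. The day 4 control mean was above the day 8 control mean in 9 of the 12 rises and also in 9 of the 12 falls. The share over all tested transcripts was not counted, so this is not shown to be particular to them.

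Against 40 mGy/h, the next lower dose rate, 100 mGy/h differed in 1 of 9367 transcripts (0.0107%), the rise in XM_032940429.1 given above, with 836 at an unadjusted p under 0.05 and the next adjusted p at 0.163 (edgeR). The 40 mGy/h mean lay between the 100 mGy/h and the control mean in all 12 rises and all 12 falls. These were picked for a large difference between the 100 mGy/h and control libraries. That choice by itself favours a 40 mGy/h mean in between, so the count is no separate support. How often this holds over all tested transcripts was not counted. At 40 mGy/h the rises were uneven. Replicate 3 was the highest of its group in 9 of the 12, and in 6 of these it reached the level of the lowest 100 mGy/h library. XM_032937289.1, for example, had 28.7 CPM in 40 mGy/h replicate 3 and 9.82, 9.56 and 9.47 CPM in replicates 1, 2 and 4, and XM_032929494.1 had 20.3 CPM in replicate 3 and 5.11, 5.39 and 6.23 CPM in the others. XM_032940429.1, counted among the 9, was even, with 37.4, 36.6, 38.3 and 38.2 CPM. In XM_032932441.1, XM_032933765.1 and XM_032922066.1 the highest 40 mGy/h library was replicate 2, 1 and 2, and it too reached the lowest 100 mGy/h library. The heat map of the day 8 libraries shows 40 mGy/h replicate 3 beside the others.

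**Figure D5:**
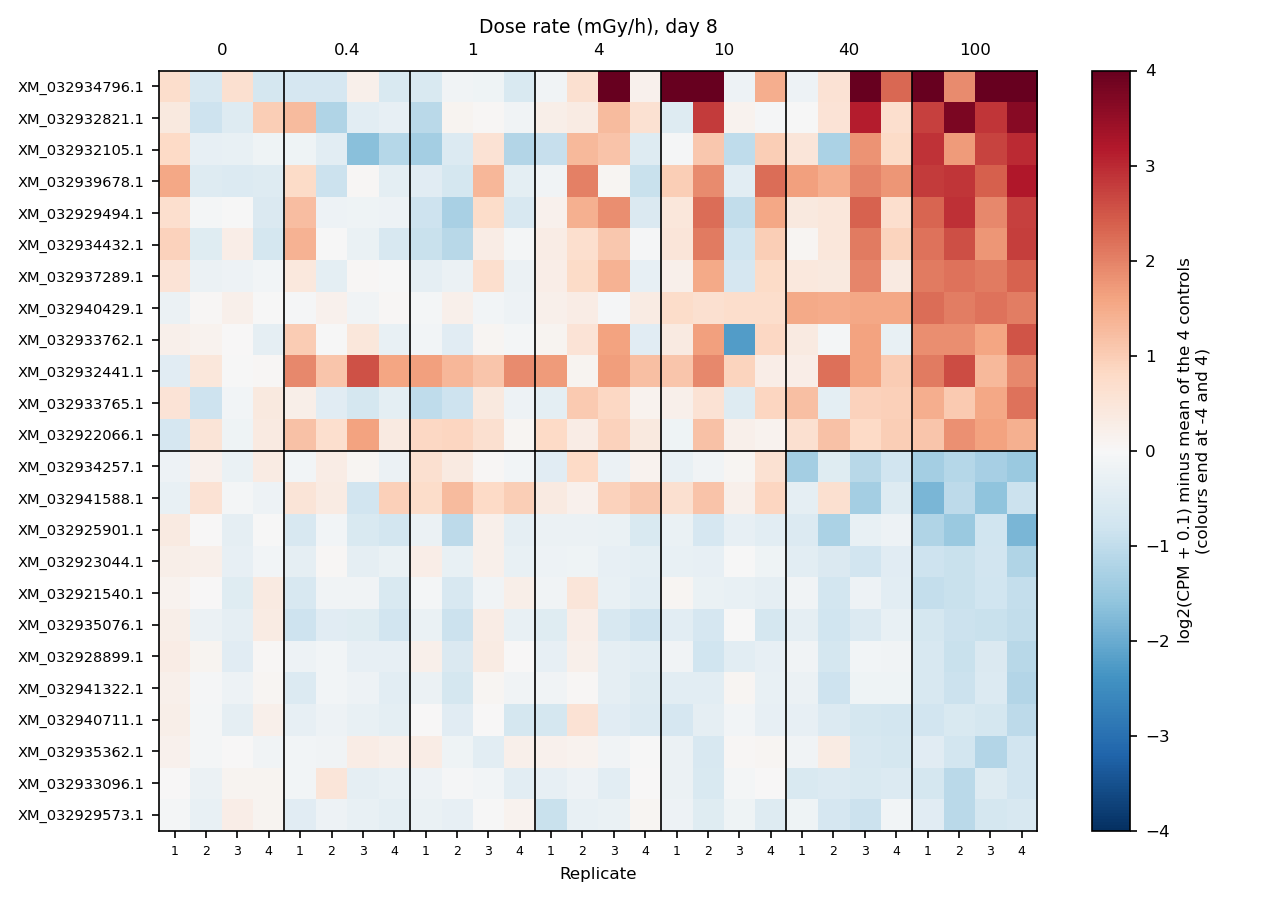
Each row is 1 of the 12 largest rises (upper block) or 12 largest falls (lower block) that met the naming rule. Each column is 1 of the 28 day 8 libraries, ordered by dose rate from 0 to 100 mGy/h. Colour is log2(CPM + 0.1) minus the mean of the 4 controls, red for higher. In the upper block all 4 columns at 100 mGy/h are red. XM_032934796.1 is paler there in replicate 2 than in replicates 1, 3 and 4. Replicate 3 at 40 mGy/h is redder than its group in most of these rows.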

How the data were processed

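The authors deposited whole-number read counts per RefSeq transcript record, not normalized, in 1 table for each day. Per the labels' protocols, mRNA was read as pairs of 100 bp. HISAT is named in the submitters' processing notes; the counting program, genome build, strand setting and handling of shared reads are not given in the sources used here. The 28 day 8 libraries held 14032254 to 14986499 counts, with no gap that separates batches. No 2 of the 8 libraries compared were alike within sampling noise (smallest chi-square per degree of freedom 32.2, records with a summed count of at least 20).

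Counts were filtered with filterByExpr, scaled with TMM and fitted with edgeR 4.0.16 (quasi-likelihood, R 4.3.3) over all 28 day 8 libraries, with a coefficient per dose rate; 9367 records were tested and p-values were adjusted by Benjamini-Hochberg over all of them. The common biological coefficient of variation was 0.332. The SE was obtained from the log2 fold change and the square root of F. The day interaction used 16 libraries, and component scores used log2 CPM with a prior count of 2. On simulated counts with 200 transcripts changed at 100 mGy/h on day 8, edgeR recovered 41.5% at 1.5-fold, 72.0% at 2-fold and 86.0% at 4-fold, with 3.49%, 4.00% and 4.44% of calls false (9332, 9318 and 9329 tested). The interaction recovered 80.0% at 4-fold, with 4.19% false (9256 tested). The simulated transcripts varied independently of each other, so these shares need not hold where many transcripts vary together between libraries.

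Named transcripts were called, averaged 50 counts or more in the 8 libraries and had groups that did not overlap; of these the 12 largest rises, 12 largest falls, 3 lowest adjusted p-values (ties broken by the unadjusted p) and 3 highest levels were taken. Called pairs of neighbouring genes were added regardless of level or overlap. The members, the rule and the lists were chosen with earlier results of these data known. Symbols and gene order came from the RefSeq annotation of assembly ASM2063170v1.1; 14015 of 23570 records matched with the version ignored, 101 with it. That table has no product names and no sequences were used, so the planned gene lists, protein families and promoter motifs were not run. Alternatives were DESeq2 1.42.0, surrogate variables from sva 3.50.0, other scalings and filters, a 2-group fit, a replicate block and leaving out each library.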

Additional observations from a re-analysis of the deposited data

Results flagged for a closer look

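In 4 transcripts, 1 control library lay far from the other controls of day 8 by Dixon's test at 95%. XM_032932105.1 had 27.3 CPM, XM_032939678.1 had 25.6 CPM and XM_032937289.1 had 10.7 CPM in control replicate 1, each above the other controls, and XM_032927918.1 had 4.58 CPM in control replicate 3, below them. Chance marks about 1 in 20 groups, and 74 groups were tested, so 3.7 would be marked by chance.

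The effect of 100 mGy/h differed between day 8 and day 4 in the edgeR interaction test (adjusted p under 0.05) for 23 of the 36 named transcripts, picked for their day 8 change. The log2 effect on day 8 minus that on day 4 was positive at 4.16 in XM_032932821.1, 3.00 in XM_032932105.1, 2.95 in XM_032929494.1, 2.59 in XM_032934432.1, 2.59 in XM_032937289.1, 2.33 in XM_032933762.1, 1.97 in XM_032932441.1, 2.05 in XM_032922066.1 and 0.65 in XM_032933233.1. It was negative at -1.85 in XM_032934257.1, -1.53 in XM_032941588.1, -1.22 in XM_032925901.1, -1.03 in XM_032923044.1, -1.28 in XM_032921540.1, -1.04 in XM_032935076.1, -0.96 in XM_032940711.1 and -0.82 in XM_032929573.1. Further negative values were -0.44 in XM_032939931.1, -0.56 in XM_032942722.1, -0.33 in XM_032924636.1, -0.82 in XM_032927918.1, -0.50 in XM_032930552.1 and -0.32 in XM_032943739.1.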

How the results depend on the processing

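The count of 256 calls moved to 163 without a filter, 692 with DESeq2, 27 with surrogate variables and 35 to 191 with each library left out; upper-quartile scaling, RLE size factors, a filter at a mean of 50 counts, the 2-group fit and the fit without the most abundant transcript gave 292, 276, 303, 268 and 235. The 2-group fit shared 127 calls with the 256. The single call at 100 against 40 mGy/h became 0 with upper-quartile scaling and in the 2-group fit, 23 with DESeq2, and 0 to 4 with each library left out; these alternatives were chosen after seeing the data. The 410 interaction calls became 901 with DESeq2, 167 with the replicate block (117 of them among the 410), and 150 to 787 with each library left out. The first-component difference of 46.9 was 39.2 over the 1000 most variable transcripts (exact permutation p = 0.0571) and 33.6 to 54.7 with each library left out, where the exact permutation p was 0.171 without 100 mGy/h replicate 4 and otherwise 0.0571, the smallest that 3 against 4 libraries allow. The causes were not tested. Whether replicate numbers mark a shared batch is not stated and was not settled here. Deviations of same-numbered libraries correlated at r = 0.027, 0.347, 0.284 and 0.145, all positive. Replicates 2 and 3 at 100 mGy/h correlated best with the control of the same number, and 100 mGy/h replicates 1 and 4 with control replicates 2 and 1. With the replicate block, 183 were called at 100 mGy/h, 173 of them among the 256. Of the 36 named transcripts, 36 stayed called with DESeq2, 26 in the 2-group fit, 27 with the block, 25 without a filter, 7 with surrogate variables and 8 to 23 with each library left out; none changed sign, but with surrogate variables 8 of the 12 largest rises and XM_032934805.1 shrank by over 1.5 times in fold. Lists of gene families and the alternatives planned for them were not run. Depth limits calls of scarce transcripts: 14203 records went untested, 12040 of them without a read in the 8 libraries.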

Other observations

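Among the untested records, 5 had reads in all 4 libraries at 100 mGy/h and in no control, with at most 4 reads in any library, and 6 had reads in all 4 controls and in no exposed library. The median SD of log2 CPM over tested transcripts was 0.181 among the 100 mGy/h libraries and 0.155 among the controls, and 126 of the 256 called transcripts had the larger SD under exposure. XM_032937250.1, chosen after its values were seen, was called whichever library was left out although 1 exposed library lay near the controls: it had 9.09, 0.746, 4.88 and 6.86 CPM at 100 mGy/h, against 0.674, 0.431, 0.637 and 0.463 CPM in controls (log2 fold change 3.27, SE 0.60, edgeR adjusted p = 0.00729). The low library was replicate 2, which was also the low one in XM_032934796.1 and XM_032934805.1.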
